A study of Mus musculus with 9 samples.

Results

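Introns that stay in the messenger RNA can be looked for in stretches that lie between adjoining exons of a gene. In the hearts of mice with a frameshift in Rbm20, 9651 such stretches of 80 to 13028 bases were followed. Of these, 5090 matched a whole annotated intron. All 9651 were taken from a table of 480017 exonic parts, made by cutting exons wherever an annotated exon starts or ends. A member had at least 80 bases, touched another part of the same gene on both sides, belonged to 1 gene identifier other than Ttn, and had, in each library, no fewer than 10 reads when inclusion and exclusion were added. Members were also chosen by a measured value, a mean percent spliced in (PSI, the fraction of transcripts estimated to hold the part) under 0.3 in the 3 wild-type libraries. Such a part is annotated as exon in some transcript and is left out of most transcripts in the wild-type heart, which is the arrangement of a retained intron. The members lay in 4154 genes. Of these genes 1866 held 1 member, and a gene held at most 16.

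Total RNA from hearts of mice aged 12 weeks was sequenced as paired reads from a stranded kit. Wild-type mice, mice heterozygous for an Rbm20 allele made with CRISPR/Cas and mice homozygous for it gave 3 libraries per genotype. The allele, p.Q374Rfs, lacks a pair of bases (AG) and shifts the reading frame, and it is the mouse counterpart of a human frameshift variant. As a knock-in it is carried by every cell of the animal, and the sample was heart tissue, so fewer cells of a type and less RNA per cell cannot be told apart. Nothing in the labels ties a library to its own mouse, and p-values measure only the spread between these libraries.

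RBM20 is a splicing repressor of striated muscle. It binds UCUU-containing stretches in introns of genes such as Ttn, Camk2d and Ldb3 and keeps the flanking exons out of the mature RNA. Intron retention is a separate outcome of splicing, in which the intron stays between its exons. The retained RNA is often held in the nucleus, where it is called a detained intron, or is decayed when the intron brings in a stop codon. Genes of splicing factors and splicing kinases are known for such introns.

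The label was checked against the transcripts of GENCODE M21, by gene identifier and exact length. Of the members, 5090 (52.7%) were a whole intron of another transcript of the same gene, and 5008 of these (98.4%) started with GT and ended with AG, the usual ends of an intron. A further 3533 (36.6%) had an edge at an annotated transcript start or end, 549 (5.69%) lay between splice sites without being a whole intron, and 479 (4.96%) had no unique match. By this annotation the label of a retained intron holds for the first of these classes, and results are given for whole introns beside those for all members. A part with a transcript edge can be an alternative first or last exon, and a part between splice sites of the same kind can be a longer form of an exon.

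The sequences that follow are printed because these parts were called or had among the smallest p-values in the comparisons that follow. They were read from the M21 transcripts, on the build GRCm38 and on the transcript strand, 5′ to 3′, and the capitals mark the terminal dinucleotides of a whole intron. For Arhgef2 and Abitram, which are not whole introns, the capitals mark the AG of the acceptor at the 3′ end. All other coordinates are those of the deposited table, on GRCm39.
Tead1 part 19, chr7:112841951-112842039 (+ strand): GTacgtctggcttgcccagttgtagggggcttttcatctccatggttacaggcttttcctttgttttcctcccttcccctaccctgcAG
Zfp384 part 20, chr6:125024271-125024413 (+ strand): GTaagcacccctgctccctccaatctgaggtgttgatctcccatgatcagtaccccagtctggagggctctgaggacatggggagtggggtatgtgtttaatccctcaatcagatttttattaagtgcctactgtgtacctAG
Nol6 part 25, chr4:41121587-41121778 (- strand): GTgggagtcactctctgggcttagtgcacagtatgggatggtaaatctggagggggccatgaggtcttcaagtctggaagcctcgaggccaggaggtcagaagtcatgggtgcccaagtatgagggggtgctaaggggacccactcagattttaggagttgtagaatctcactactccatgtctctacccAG
Ssh3 part 21, chr19:4265421-4265609 (- strand): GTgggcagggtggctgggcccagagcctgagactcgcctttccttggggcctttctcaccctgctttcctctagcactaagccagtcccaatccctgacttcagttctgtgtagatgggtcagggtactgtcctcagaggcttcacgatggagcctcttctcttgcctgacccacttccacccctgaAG
Cers2 part 22, chr3:95321387-95321574 (+ strand): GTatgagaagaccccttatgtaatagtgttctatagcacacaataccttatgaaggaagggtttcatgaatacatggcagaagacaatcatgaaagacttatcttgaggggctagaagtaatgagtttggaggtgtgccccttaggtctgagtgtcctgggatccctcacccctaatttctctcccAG
Arhgef2 part 48, chr3:88633061-88633257 (+ strand): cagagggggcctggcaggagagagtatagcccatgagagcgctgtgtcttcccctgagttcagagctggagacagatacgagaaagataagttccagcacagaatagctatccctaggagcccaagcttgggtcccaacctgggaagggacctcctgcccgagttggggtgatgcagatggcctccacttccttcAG
Abitram part 6, chr4:56803508-56803595 (+ strand): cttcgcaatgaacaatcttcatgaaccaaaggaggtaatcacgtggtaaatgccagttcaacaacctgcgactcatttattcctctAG
The introns of Tead1, Nol6, Ssh3 and Cers2 start with GT and end with AG, as does that of Zfp384, and they are short, with 89 to 192 bases. In the frame of the exons around it, the intron of Nol6 holds a stop codon, and so do those of Ssh3 and Cers2. The Tead1 intron of 89 bases holds none.

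The whole introns among the members had a median length of 268 bases and a median GC content of 50%. Between coding exons lay 4325 of them, and 3885 (89.8%) of these held a stop codon in frame, while 117 had no stop and a length that keeps the frame. A transcript of the biotype retained_intron covered 4155 (81.6%). The tetramer TCTT, the DNA spelling of the core that RBM20 binds, was searched on the transcript strand with overlapping matches counted, and 77.9% of the whole introns held it. With introns in 5 bins of about equal number by length, 99.7% of the longest bin did and 47.5% of the shortest.

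Wild-type PSI, which chose the members and is given as a description, was low for most. Its median over the members was 0.0256, with 6385 members under 0.05, 1743 at 0.1 or more and 587 at 0.2 or more. At the limit, Gnas part 15 (0.2999), Adamtsl5 part 12 (0.2997) and Adarb1 part 17 (0.2995) were the last inside, and Scamp5 part 15 (0.3002), Dcaf11 part 13 (0.3004) and Emsy part 8 (0.3007) the nearest outside. Among whole introns the median wild-type PSI was 0.00913 in the lowest of 5 bins by GC content (20% to 40.7%) and 0.0272 in the highest (57.6% to 88.5%). Internal introns had a median of 0.0166, below that of first introns (0.0232), last introns (0.0286) and the only intron of a transcript (0.0434). The longest bin, of 837 bases or more, had 0.0123, and the shortest, of up to 110 bases, 0.0200. These are values over introns that share libraries and genes, with no test.

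**Figure D1:**
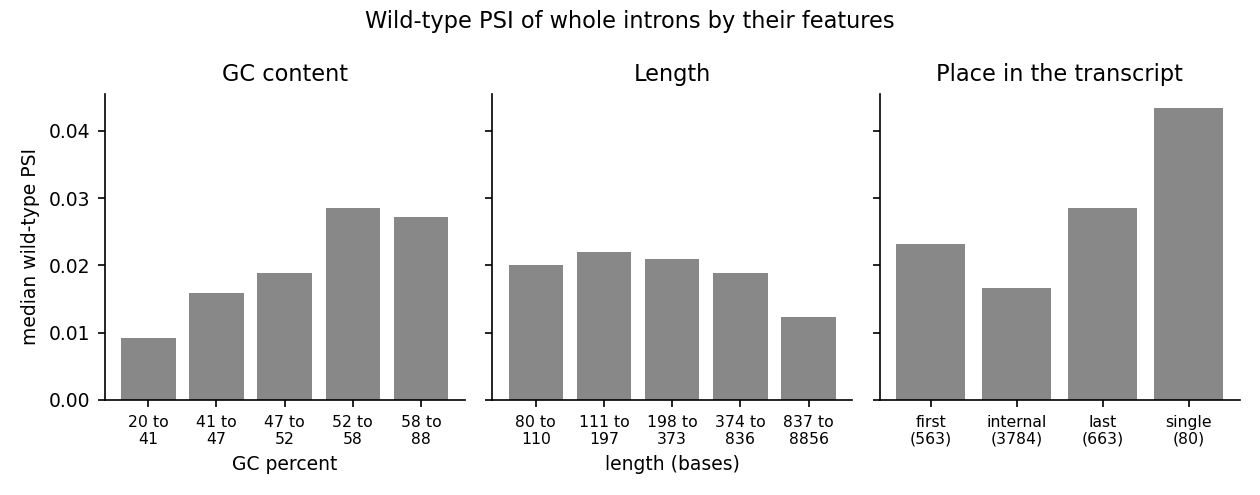
Median wild-type PSI (fraction) of the 5090 whole introns, as bars from 0, by 5 bins of GC content (left), by 5 bins of length (middle) and by place in the transcript with the number of introns (right). The bin with the lowest GC content had the lowest median, 0.00913, and introns that are the only intron of their transcript the highest, 0.0434.

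Depth was even over the libraries. Each library held 297 to 323 M inclusion reads, of which the members took 0.201% to 0.264%, and the median over members and libraries was 228 reads, inclusion and exclusion added. Rbm20, the targeted gene, had a CPM (counts scaled to library size) of 104 to 132 in wild-type, 68.5 to 90.5 in heterozygous and 52.0 to 66.0 in homozygous libraries, and its fall against wild-type was called in homozygous hearts (log2 fold change -0.98, SE 0.139, edgeR adjusted p = 0.00436). Cardiomyocyte markers, 5 of 6 measured, summed to an inclusion CPM of at least 53100 in each library. Atrial markers (4 of 4) summed to 104 to 181 in wild-type, 54.2 to 2190 in heterozygous and 374 to 545 in homozygous libraries. By this sum each homozygous library lay above each wild-type one, while the heterozygous libraries spanned both groups. Myl4, on the same list, went the other way on average. Counted outside the members, its CPM was 23.8 ± 26.6 in wild-type and 4.89 ± 4.61 in homozygous libraries (SD, n = 3 each). The part of atrial tissue in the results that follow was not tested. Skeletal muscle markers (5 of 5) stayed at 1.24 or less.

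The question put to the members was whether introns are retained more often with the frameshift allele. Wild-type PSI chose the members, so the comparison of homozygous with heterozygous hearts, which the choice did not use, is the main one. Mean PSI over the 9651 members was 0.0501, 0.0539 and 0.0559 in the wild-type libraries, 0.0529, 0.0530 and 0.0532 in the heterozygous ones, and 0.0666, 0.0587 and 0.0624 in the homozygous ones. All 3 homozygous libraries lay above the other 6, while the wild-type libraries spanned the heterozygous values. As group values these were 0.0533 ± 0.0029, 0.0530 ± 0.000133 and 0.0625 ± 0.00394 (SD, n = 3 each).

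Whole introns showed the same order at a lower level. Their mean PSI was 0.0515 ± 0.00435 in homozygous, 0.0424 ± 0.000177 in heterozygous and 0.0435 ± 0.00253 in wild-type hearts (SD, n = 3 each). The parts with a transcript edge went from 0.0610 ± 0.000921 in heterozygous to 0.0712 ± 0.00365 in homozygous hearts, and those between splice sites from 0.0812 ± 0.00122 to 0.0916 ± 0.00241. The level differed by class more than by genotype. By median over the members the groups did overlap, since homozygous replicate 2 had 0.0248 and wild-type replicate 3 had 0.0252, against 0.0221 to 0.0231 in the heterozygous libraries. Pooled reads, which weight the most abundant RNAs, also overlapped, with 6.48 to 8.53 inclusion reads per 100 exclusion reads in homozygous, 6.2 to 7.14 in heterozygous and 6.55 to 7.52 in wild-type libraries.

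**Figure D2:**
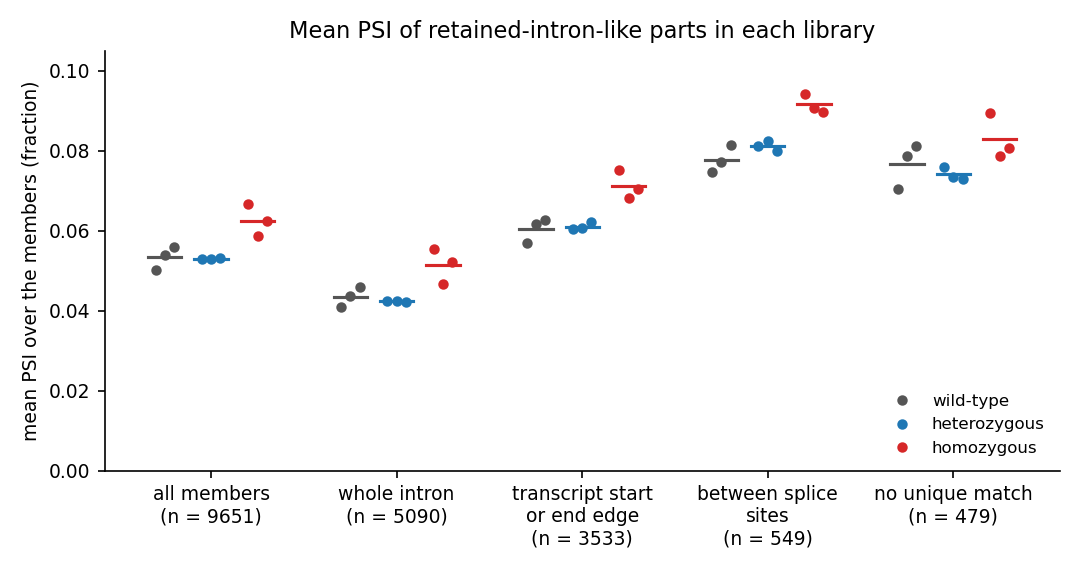
Mean PSI (fraction) over the members in each of the 9 libraries, for all members and for each class, with points for libraries and bars for group means. Over all members the homozygous libraries sit between 0.0587 and 0.0666, above the 0.0501 to 0.0559 of the other 6.

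From heterozygous to homozygous hearts, 6504 members (67.4%) had a higher mean PSI and 2931 (30.4%) a lower one, with a median difference of 0.00303 and a mean of 0.00952. Over all 256081 parts with the read minimum, most of them constant, 25.7% were higher and 20.8% lower. A closer background is the 43488 other parts with a wild-type mean under 0.3, of which 59.4% were higher and 34.8% lower, with a median of 0.00127 and a mean of 0.00836. The homozygous libraries lay wholly above the heterozygous ones at 1148 members (11.9%) and wholly below at 219 (2.27%). The background for these shares was 2.67% and 1.29% over all parts, and 8.70% and 2.39% over the other parts with a low wild-type PSI. At an unadjusted p under 0.05 by limma, 898 members (9.30%) were higher and 117 (1.21%) lower, against 1.99% and 0.877% of all parts and 6.50% and 1.41% of the other low parts. These other low parts thus leaned the same way, to a smaller extent. No test was made of the gap between them and the members. Their median wild-type PSI was 0.0150, below the 0.0256 of the members, and the part of this level in the gap was not tested. Parts of the same shape as the members but with a wild-type mean of 0.3 to 0.7 numbered 1162. Of these, 61.1% were higher and 38.9% lower, with a mean difference of 0.0228. The homozygous libraries lay wholly above at 10.8% of them and wholly below at 4.73%.

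Single differences were small. A PSI higher by at least 0.05 in homozygous than heterozygous hearts was seen at 700 members and lower by as much at 164, and at 0.1 the numbers were 181 and 46. The 1148 members with separate groups lay in 905 genes, 170 of which held more than 1 of them and none more than 6. The share of members with a higher mean was 59.0% where wild-type PSI was under 0.01, 70.7% from there to 0.05, 73.8% up to 0.1, 71.5% up to 0.2 and 65.8% up to 0.3. Homozygous and heterozygous ranges of mean PSI were apart at each of these levels, for example 0.0804 to 0.0929 against 0.0693 to 0.0701 for members with a wild-type PSI from 0.05 to 0.1.

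**Figure D3:**
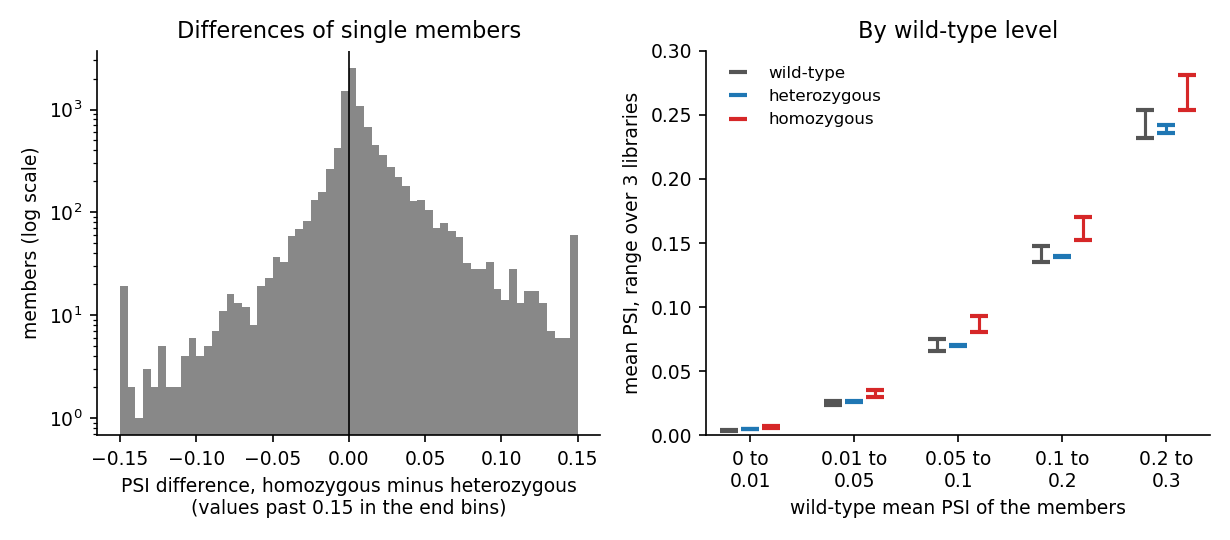
Left, the number of members (log scale) by PSI difference between homozygous and heterozygous means, with differences past 0.15 in the end bins. Right, the range of mean PSI over the 3 libraries of each group for members at 5 levels of wild-type PSI. More members lie to the right of 0 (67.4%) than to the left (30.4%), and the homozygous range lies above the heterozygous one at each level.

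The sign of the shift did not rest on 1 library. Without homozygous replicate 1, the highest, the mean difference was 0.00751 and 59.7% of the members were higher, and without homozygous replicate 2, the lowest, it was 0.0115 and 68.9%. Without any 1 of the heterozygous libraries it was between 0.00948 and 0.00960. The median difference without homozygous replicate 1 was 0.00161. With all libraries the other low parts had 59.4% higher and a mean difference of 0.00836, and their values without a library were not computed. Whether the gap between them and the members rests on homozygous replicate 1 was not tested. Over the 6267 members with at least 100 reads in each library the median difference was 0.00262, with 70.7% higher. Nuclear RNAs were also higher in homozygous hearts on average, though not all groups were apart. Malat1, a long non-coding RNA of nuclear speckles, had 869 to 974 inclusion CPM in homozygous, 646 to 760 in heterozygous and 693 to 823 in wild-type libraries. Neat1, the scaffold RNA of paraspeckles, had 542 to 682, 416 to 560 and 434 to 476. For Malat1 the homozygous libraries lay above all others, and for Neat1 they overlapped the heterozygous ones. Cardiomyocyte markers summed to 62400 to 67000 inclusion CPM in homozygous, 53700 to 57700 in heterozygous and 53100 to 63400 in wild-type libraries. The part of these RNAs in the result was not tested. The library numbers fall into a lower and a higher range, with 3 of 3 homozygous, 2 of 3 heterozygous and 1 of 3 wild-type libraries in the lower one, and the labels do not say what the number stands for.

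Read density gave a second view that uses no exclusion reads. It was the inclusion reads of a part per base against those of its flanking parts, on a log2 scale with 0.5 reads added. The median log2 difference from heterozygous to homozygous hearts was 0.20 over the members, with 65.9% above 0, and 0.30 over whole introns, with 70.4% above 0. The other low parts that could be measured had 0.07 and 58.1%. No member passed an adjusted p of 0.05 by limma, where 1 of 65868 parts (0.00152%) did in all. At an unadjusted p under 0.05, 757 members were higher (7.84%, background 3.6%) and 183 lower (1.90%, background 3.35%).

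At the level of single members few differences passed the test. A call required a Benjamini-Hochberg adjusted p under 0.05 over all tested parts and a PSI difference of at least 0.1. Only 4918 members, in 2587 genes, reached the highest PSI of 0.05 that testing asked for, and the other 4733 were not tested. From heterozygous to homozygous hearts limma called 2 members, Arhgef2 part 48 and Tnfaip8 part 8, and both rose. That is 0.0407% of the members tested, against 0.264% of all tested parts. The rule kept Ttn and parts with a wild-type PSI of 0.3 or more out of the members but not out of all tested parts. The shares are therefore of unlike sets, and nothing is read from the gap. At an unadjusted p under 0.05 there were 512 among the tested members (10.4%, background 6.93%). The highest PSI was taken over all 9 libraries, so a low member can be tested only through the group where it is high. Nothing is read from this share. By edgeR on the counts 0 members were called.

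Arhgef2 encodes a guanine nucleotide exchange factor for RhoA that is held on microtubules. Its part 48 (ENSMUSG00000028059, 197 bases, chromosome 3, 88540368 to 88540564) runs from the end of a short transcript to an acceptor, and its sequence is printed above. PSI was 0.129, 0.220 and 0.173 in the wild-type libraries, 0.111, 0.141 and 0.133 in the heterozygous and 0.337, 0.325 and 0.308 in the homozygous ones. The homozygous libraries lay above all others. The difference from heterozygous hearts was 0.195 (SE 0.028, limma adjusted p = 0.0340), and from wild-type it was 0.149 (adjusted p = 0.102). Inclusion reads summed to 224, 149 and 353 in the 3 groups, and the density difference of 1.07 on the log2 scale did not pass (limma adjusted p = 0.365).

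Tnfaip8, a protein induced by tumour necrosis factor that bears on cell death, had the other call, at part 8 (85 bases, chromosome 18, 50164096 to 50164180). The part runs from a transcript start to a donor site, as an alternative first exon does, so it is no intron by the annotation. PSI was 0.0860, 0.0578 and 0.0743 in the wild-type libraries, 0.0969, 0.121 and 0.0676 in the heterozygous and 0.236, 0.274 and 0.318 in the homozygous ones. The groups with and without homozygosity did not overlap. It rose by 0.181 from heterozygous hearts (SE 0.0253, limma adjusted p = 0.0299). The density difference was 0.21 on the log2 scale (limma adjusted p = 0.812). Leaving out 1 library moved the adjusted p more than the difference. Arhgef2 kept its call without wild-type replicate 1 or 2 and lost it without any 1 of the other libraries, with limma adjusted p from 0.0202 to 0.143 and a difference of 0.186 to 0.203 over these fits. Tnfaip8 kept its call without homozygous replicate 1 and lost it without any 1 of the other libraries, with limma adjusted p from 0.0228 to 0.142 and a difference of 0.160 to 0.201.

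Among the 16 further members with the smallest p in this comparison, 15 were higher and 1 was lower in homozygous hearts, and 6 were whole introns. They were ranked by p among tested members, where a low member enters only through the group where it is high. Nothing is read from these counts. Differences ran from -0.134 to 0.314 and limma adjusted p from 0.0736 to 0.252, so none passed. Nol6, which acts in the making of ribosomes, had at part 25 (192 bases, chromosome 4, 41121587 to 41121778) a PSI of 0.0278, 0.0889 and 0.0539 in the wild-type libraries, 0.0260, 0.0368 and 0.0487 in the heterozygous and 0.192, 0.139 and 0.228 in the homozygous ones. The lowest homozygous value was above the highest of the other 6, and the difference from heterozygous hearts was 0.149 (adjusted p = 0.0819). It rests on 28, 18 and 55 inclusion reads per group.

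Cers2, a ceramide synthase, is the best covered whole intron among them, with 312, 318 and 569 inclusion reads per group at part 22 (188 bases, chromosome 3, 95228698 to 95228885). PSI was 0.143, 0.138 and 0.118 in the wild-type libraries, 0.15, 0.117 and 0.119 in the heterozygous and 0.243, 0.220 and 0.204 in the homozygous ones. Wild-type and heterozygous values overlapped and homozygous values stood above both. The difference from heterozygous hearts was 0.0940 (SE 0.0200, limma adjusted p = 0.248).

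Ssh3, a phosphatase of the slingshot family that acts on cofilin, had at part 21 (189 bases, chromosome 19, 4315449 to 4315637) a PSI of 0.0669, 0.0520 and 0.0257 in wild-type and 0.152, 0.111 and 0.124 in homozygous libraries. The heterozygous libraries had 0, 0.0465 and 0.0169, and the 0 stands on 36 exclusion reads, with 3 inclusion reads allowing a PSI of up to 0.0353. Again the homozygous values were the highest 3 (difference from heterozygous 0.108, limma adjusted p = 0.0862). Zfp384, a zinc finger transcription factor, has 2 adjoining members, the whole intron part 20 and part 21 behind it. Part 20 (143 bases, chromosome 6, 125001234 to 125001376) had a PSI of 0.104, 0.0880 and 0.0635 in the wild-type libraries, 0.0504, 0.0442 and 0.0585 in the heterozygous and 0.156, 0.133 and 0.141 in the homozygous ones. Here the heterozygous libraries lay below the wild-type ones as well as below the homozygous ones (difference from homozygous 0.0920, limma adjusted p = 0.0814).

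Tead1, a DNA-binding partner of YAP in the Hippo pathway, had at part 19 (89 bases, chromosome 7, 112441158 to 112441246) a PSI of 0.00572, 0.0231 and 0.0312 in the wild-type libraries, 0.0294, 0.0438 and 0.0240 in the heterozygous and 0.102, 0.140 and 0.104 in the homozygous ones. Every homozygous library was above 0.1 and every other one under 0.05. Testing asked for a PSI of 0.05 in some library, so this part was tested only through the homozygous ones. It was named for its small p, and nothing is read from the separation. Against heterozygous hearts the difference was 0.0830 and did not pass (limma adjusted p = 0.104). Against wild-type hearts, whose PSI chose the members, it was 0.0953. The intron holds no TCTT. Exclusion reads across it were 881 in wild-type and 410 in homozygous hearts, where inclusion reads were 33 and 81.

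Of the remaining members with a small p, Telo2, Tecpr1, Accs, Nisch, Klhdc8b, Zfp62, Gpr137c and parts 9 and 13 of Cables2 were also higher in homozygous than heterozygous hearts, by 0.0572 to 0.314. The smallest, Telo2 part 28, was tested only through homozygous libraries and had 0 inclusion reads in heterozygous and 18 in homozygous hearts. With 3 inclusion reads its heterozygous libraries would have a PSI of up to 0.0157 to 0.0211. The largest, Gpr137c part 11, rests on 34 exclusion reads in heterozygous and 12 in homozygous hearts. Tprkb, a subunit of the KEOPS complex that modifies transfer RNA, was the 1 lower member. Its part 22 had a PSI of 0.0481, 0.127 and 0.113 in the wild-type libraries, 0.183, 0.207 and 0.162 in the heterozygous and 0.0521, 0.0794 and 0.0203 in the homozygous ones (difference -0.134, limma adjusted p = 0.162). The heterozygous values were the highest 3, and the count was low, with 32, 47 and 12 inclusion reads per group.

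**Figure D4:**
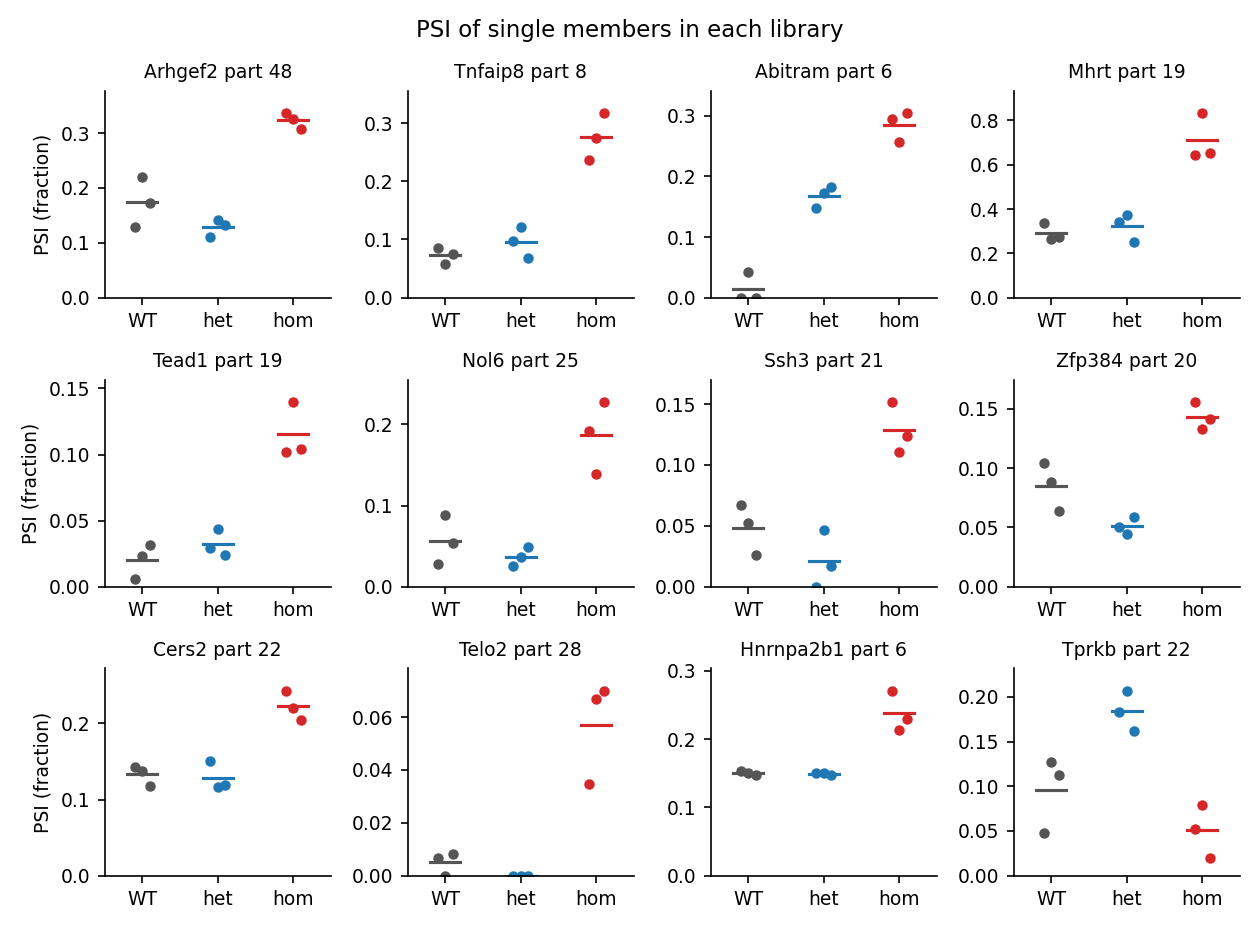
PSI (fraction, axes from 0 with their own maximum) of 12 named members in each library, by genotype (WT wild-type, het heterozygous, hom homozygous), with points for libraries and bars for group means. The homozygous points lie above the heterozygous ones in 11 panels, for example 0.308 to 0.337 against 0.111 to 0.141 at Arhgef2, and below them at Tprkb. Most of these members were named for a call or a small p, so the number of panels is not a result. Over all members, 11.9% had the homozygous libraries wholly above the heterozygous ones.

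Against wild-type hearts the values are given as a description, since wild-type PSI chose the members. From wild-type to homozygous hearts limma called 3 members, all higher (0.0610% of those tested, background 0.413% with Ttn and all PSI levels included). They were Tnfaip8 part 8 (difference 0.203, adjusted p = 0.00899), Abitram part 6 and Mhrt part 19. Abitram, an actin-binding regulator of transcription in neurons, had at part 6 (88 bases, chromosome 4, 56803508 to 56803595), a stretch between a pair of acceptors, a PSI of 0, 0.0429 and 0 in the wild-type libraries, 0.148, 0.173 and 0.183 in the heterozygous and 0.295, 0.256 and 0.305 in the homozygous ones. The 3 groups did not overlap and stood in the order of the number of frameshift alleles. The counts were small, with 2, 16 and 31 inclusion reads per group. The wild-type libraries at 0 had 10 and 12 exclusion reads, so 3 inclusion reads would give a PSI of up to 0.158 and 0.136. The difference was 0.271 (SE 0.0223, limma adjusted p = 0.000427).

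Mhrt, a non-coding RNA transcribed from the Myh7 locus on the opposite strand, had at part 19 (607 bases, chromosome 14, 55207884 to 55208490) a PSI of 0.337, 0.264 and 0.273 in the wild-type libraries, 0.342, 0.375 and 0.252 in the heterozygous and 0.644, 0.835 and 0.654 in the homozygous ones. Homozygous values were again the highest 3 (difference from wild-type 0.419, limma adjusted p = 0.0332), and the call was lost in each fit that left out 1 library except that without homozygous replicate 2, with a difference of 0.357 to 0.453 over these fits. In the same fits Tnfaip8 lost its call without wild-type replicate 2 or 3, at a difference of 0.182 to 0.224. Abitram kept its call in them (0.261 to 0.286), lost it in edgeR on the counts (adjusted p = 0.346), and was not among the parts left by a minimum of 20 reads. The part lies in the span of Myh7, whether strand was used in counting is not given in the sources used here, and the 2 genes cannot be told apart there. Summed outside the members, Mhrt reads also rose, by a log2 fold change of 0.89 (edgeR adjusted p = 0.0247), and so did Myh7 reads, by 0.72 (edgeR adjusted p = 0.00936).

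From wild-type to heterozygous hearts 0 members were called by limma (background 0.0755%), 430 (4.46%) were at an unadjusted p under 0.05 (background 1.83%), and edgeR on the counts called 0. Of the other parts with a low wild-type PSI, 1.89% were higher and 2.30% lower at that p, against 1.81% and 2.64% of the members. A higher heterozygous mean was seen at 45.0% of the members (background 22.9%) and a lower one at 53.0% (background 24.0%), with a median difference of -0.000264. The other low parts, a closer background, had 45.0% and 49.3%. From wild-type to homozygous hearts 64.1% were higher (background 25.3%) and 34.0% lower (background 21.5%), with a median difference of 0.00243, where the other low parts had 57.3% and 37.2%. These comparisons share the wild-type libraries.

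Members in genes named RBM20 targets numbered 48, in 17 of the 28 listed genes, and only 18 of them were tested. The tested ones had 0 calls in each comparison by limma, with a smallest adjusted p of 0.491 from heterozygous to homozygous hearts. At an unadjusted p under 0.05, 8 of the 48 (16.7%) were higher and 1 (2.08%) lower, where all members had 9.30% and 1.21%. Of the 48, 33 were higher in homozygous than heterozygous hearts and 15 lower, a share of 68.8% where all members had 67.4%. Lmo7, a LIM domain scaffold, had at part 26 a PSI of 0.267, 0.182 and 0.145 in the wild-type libraries, 0.230, 0.311 and 0.245 in the heterozygous and 0.384, 0.520 and 0.380 in the homozygous ones. The homozygous values stood above the rest (difference from heterozygous 0.165, limma adjusted p = 0.569). By the annotation this part lies between a pair of donor sites and is not a whole intron. Part 32 of Myh7, the slow myosin heavy chain, runs from a transcript start to a donor site and is no whole intron either. This part had 0.00578 to 0.00634 in heterozygous and 0.0365 to 0.0821 in homozygous libraries, without overlap (limma adjusted p = 0.491). It was tested only through the homozygous libraries. Myh7 is a near copy of Myh6, and reads of the pair may be split between them. Ldb3 part 26, a whole intron with GC-AG ends in a Z-disc gene, differed by -0.00542 (adjusted p = 0.908).

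Splicing factors and splicing kinases held 200 members in 47 of 69 genes, at a median wild-type PSI of 0.0620, above the 0.0256 of all members. Of these, 128 were tested and none was called by limma. From heterozygous to homozygous hearts 144 of the 200 had a higher mean (72.0%, all members 67.4%) and 54 a lower one. At an unadjusted p under 0.05, 22 of the 200 (11%) were higher and 2 (1.00%) lower, where all members had 9.30% and 1.21%. Hnrnpa2b1, an RNA-binding protein of the hnRNP family, had at part 6 (704 bases) a PSI of 0.154, 0.15 and 0.148 in the wild-type libraries, 0.151, 0.151 and 0.147 in the heterozygous and 0.271, 0.214 and 0.230 in the homozygous ones. The homozygous values stood apart from a narrow band that held the other 6 (difference 0.0889, SE 0.0211, limma adjusted p = 0.343). By the annotation this part runs from a transcript end to an acceptor and is not a whole intron. Srsf2 part 9, an intron of an SR protein known to control its own splicing, had 0.232, 0.217 and 0.234 in heterozygous and 0.277, 0.249 and 0.265 in homozygous libraries, but wild-type libraries reached 0.278. Genes known for detained introns, such as Clk1, Mat2a and Ccnl2, held 26 members, of which 14 were higher and 12 lower. Of the 26, 11 were whole introns, and whether these are the introns known to be detained was not checked. Only 16 were tested, with 0 called by limma and a smallest adjusted p of 0.753. At an unadjusted p under 0.05, 1 of the 26 (3.85%) was higher and 2 (7.69%) lower, where all members had 9.30% and 1.21%. Clk1 part 19, with an edge at a transcript end, differed by -0.0157 and Mat2a part 19, a whole intron, by 0.0137 (limma adjusted p = 0.775 and 0.776).

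Genes of the heart muscle cell held few members. Sarcomere and Z-disc genes had 33 at a median wild-type PSI of 0.00551, with 24 higher and 8 lower in homozygous than heterozygous hearts. Calcium handling and ion channel genes had 28, with 18 higher and 10 lower. Mitochondrial energy metabolism had 62, with 50 higher and 11 lower, and ribosome and translation had 41, with 32 higher and 9 lower. Only 13, 6, 9 and 3 members of these lists, in that order, were tested, and the others could not be called. By limma 0 of the tested ones were called in any comparison. From heterozygous to homozygous hearts 0.264% of all tested parts were called. At an unadjusted p under 0.05 from heterozygous to homozygous hearts the lists had, in that order, 3 (9.09%), 5 (17.9%), 8 (12.9%) and 0 higher members, and 0, 1, 1 and 1 lower ones, where 9.30% of all members were higher. In the ribosome list, Rps24 part 22 had a PSI of 0.188 and 0.169 in heterozygous replicates 1 and 2, and 0.0303 to 0.0440 in the other 7 libraries, so it set apart 2 libraries and not a genotype. Polg part 61, an intron of the mitochondrial DNA polymerase gene, had 0.0878, 0.134 and 0.0891 in heterozygous and 0.152, 0.177 and 0.161 in homozygous libraries (difference 0.0597, limma adjusted p = 0.546). Cacna2d1 part 29, in a calcium channel subunit gene, has an edge at a transcript start and is not a whole intron. It had 0.0265, 0.0974 and 0.0489 in heterozygous and 0.116, 0.293 and 0.15 in homozygous libraries (limma adjusted p = 0.609).

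**Figure D5:**
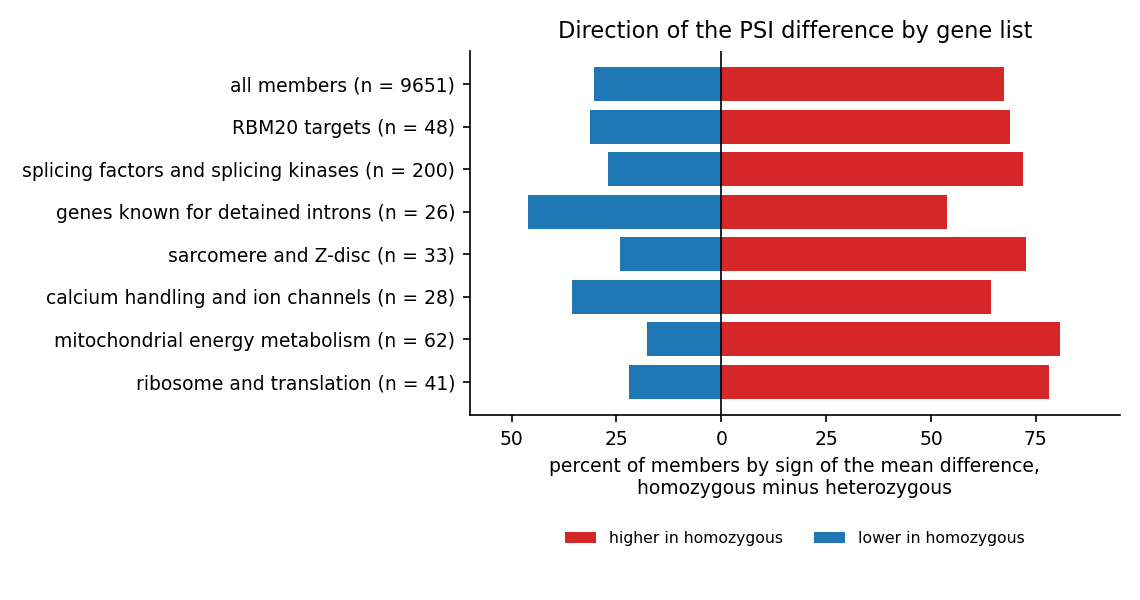
Percent of members with a higher (right) or lower (left) mean PSI in homozygous than heterozygous hearts, for all 9651 members and for 7 gene lists with their number of members. The share that was higher ran from 53.8% in genes known for detained introns to 80.6% in mitochondrial energy metabolism, around the 67.4% of all members.

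The members with the most reads were parts of abundant cardiac RNAs, and none of those named here was called. Myh6 part 48 held 224217 wild-type inclusion reads and had a PSI of 0.202, 0.132 and 0.162 in heterozygous and 0.189, 0.118 and 0.121 in homozygous libraries. Atp2a2 part 4, in the gene of the calcium pump of the sarcoplasmic reticulum, stayed within 0.0195 to 0.0229 over the 9 libraries. Part 17 of Tnnt2, a whole intron of the troponin T gene, stayed within 0.00169 to 0.00405. Neither of the last 2 reached the PSI of 0.05 that testing asked for. Ptgds part 4, the last intron of the prostaglandin D synthase gene, had 0.109, 0.249 and 0.188 in heterozygous and 0.282, 0.230 and 0.270 in homozygous libraries, which overlap (limma adjusted p = 0.745). Sh3glb1 part 4 was lower in homozygous libraries, at 0.139 to 0.154 against 0.157 to 0.185 (adjusted p = 0.780). Members near the median of 50 wild-type inclusion reads, such as Saal1 part 11 at 0.00735 to 0.0481 in heterozygous and 0.0218 to 0.109 in homozygous libraries, overlapped between heterozygous and homozygous hearts.

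Sequence features of whole introns were set beside the shift, as a description. From heterozygous to homozygous hearts the share with a higher mean was 63.5%, 69.4%, 67.7%, 71.6% and 68.3% from the bin with the lowest GC content to that with the highest, with no steady order. It was 69.4% for internal, 62.9% for first and 64.2% for last introns, and 63.9% for the shortest and 68.3% for the longest bin. The 605 whole introns with all homozygous libraries above all heterozygous ones held TCTT in 79.8% of cases, and the other 4485 in 77.7%, with a median of 0.685 and 0.679 matches per 100 bases. Introns with a stop codon in frame were higher in 68.3% and those without in 65.7%.

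Host genes of members were summed with the members' own reads left out. From heterozygous to homozygous hearts edgeR called 42 of 4144 host genes (1.01%, background 0.966%), 25 up (0.603%, background 0.517%) and 17 down (0.410%, background 0.449%). From wild-type to homozygous hearts it called 207 (5.0%, background 4.35%), 108 up (2.61%, background 1.87%) and 99 down (2.39%, background 2.49%), and from wild-type to heterozygous hearts 0, with 86 at an unadjusted p under 0.05 (background 3.22%) and 0 by DESeq2. These counts moved with single libraries. The first was 9 to 23 without wild-type replicate 2 or 3, heterozygous replicate 1 or 3, or homozygous replicate 2 or 3. The second was 51 to 103 without any 1 of the wild-type libraries or homozygous replicate 2 or 3, and 324 without heterozygous replicate 2. DESeq2 called 163 and 551. The hosts of the called and printed members did not pass from heterozygous to homozygous hearts, with log2 fold changes of 0.15 for Arhgef2 (adjusted p = 0.469), -0.12 for Tnfaip8 (0.738), -0.29 for Tead1 (0.488), -0.21 for Nol6 (0.442) and 0.17 for Cers2 (0.448), all by edgeR. Mhrt is the exception, at 0.94 (adjusted p = 0.0428).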

How the data were processed

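Per the labels, 9 libraries of total RNA from mouse hearts were sequenced as paired reads, and groups were taken from the sample titles. The authors deposited inclusion counts (reads in a part), exclusion counts (reads that skip it) and PSI as a fraction for each exonic part, on GRCm39. PSI was recomputed as i/(i + e), where i is inclusion reads divided by 148 bases more than the part length and e is exclusion reads divided by 148 (largest gap 5.0e-07). Per the submitters' processing notes, cutadapt 1.8 and Salmon 1.2.1 are named, with no role given. The counting tool and its use of strand are not given in the sources used here. No column belonged to another sample. The deposited group means and differences of PSI, a fraction and a signed score, were not used for any result.

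From these values PSI was fitted with limma 3.58.1 in R 4.3.3 over all 9 libraries, with a variance trend and 6 residual degrees of freedom, on parts whose highest PSI was at least 0.05 and lowest at most 0.95. Counts and shares over all members used the same fit without that filter. A call needed a difference of at least 0.1 and an adjusted p (Benjamini-Hochberg) under 0.05. Read density was fitted in limma as a log2 ratio with 0.5 reads added, and host genes, as sums of inclusion counts outside the members, with edgeR 4.0.16 (quasi-likelihood, 22047 genes). DESeq2 1.42.0 was an alternative. Figures were drawn with matplotlib 3.10.9, and tables handled with numpy 2.4.6, pandas 2.3.3 and Python 3.11.15. The scripts were tested on simulated data.

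Members and gene lists were chosen with earlier results of these data known. The text names called members with separate groups, then those with the smallest p from heterozygous to homozygous hearts until 20 were named, up to 6 per gene list, the 5 with the most and the 5 nearest the median of wild-type inclusion reads, and 3 on each side of the PSI limit. Not all of them are described. Limits from 3 reads cover counting error only, since the reads carry no molecular identifiers. Alternatives were a logit scale, other filters and member choices, no variance trend, a replicate block, a library number covariate, edgeR on counts and leaving out each library.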

Additional observations from a re-analysis of the deposited data

How the results depend on the processing

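From heterozygous to homozygous hearts, from wild-type to homozygous hearts and from wild-type to heterozygous hearts, 2, 3 and 0 members were called. The counts in that order were 0, 3 and 0 on the logit scale, 0, 1 and 0 without the filter on constant parts, 4 and 6 without the variance trend (0 in the last), 1, 1 and 0 with the library number covariate or with only the groups compared, and 0, 1 and 0 by edgeR on counts. With members of at least 200 bases they were 0 and 1, and with whole GT-AG introns, an alternative chosen after seeing the data, 0 and 0. Leaving out 1 library gave 0 to 3, 1 to 6 and 0 to 2. A fit with the replicate number as a block gave 0, 1 and 0, but same-numbered libraries did not deviate together (correlations of -0.009 to 0.037, against -0.06 to 0.063 between other numbers), so the numbers name libraries and do not pair them. Density calls, 0 in each comparison, were 0 to 1 without 1 library. Host genes called, 42, 207 and 0, became 163 and 551 with DESeq2, 188, 574 and 6 without the low-count filter, 88 and 582 with the replicate block, and 9 to 60, 51 to 324 and 0 without 1 library. The cause of these moves was not tested. The mean PSI difference of 0.00952 stayed above 0, at 0.00751 to 0.0115, under its 11 alternatives, some of them chosen after seeing the data. Small differences changed sign for Lrrfip1 part 36 (-0.00363 with the covariate, -0.00244 to 0.0171 without 1 library), Ccnl2 part 11 (0.00577 with the covariate, -0.0131 to 0.00336 without 1 library), Dbp part 7 (-0.00202 to 0.0127), Myl4 part 13 (-0.000409 to 0.0267), Rps27a part 11 (-0.00327 to 0.00389) and Rpl22 part 6 (-0.00281 to 0.0027). The lower quartile of depth was 97 reads per member and library, and the minimum on the highest PSI left 4733 members untested.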
